A study of Homo sapiens with 24 samples.

Results

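ABCA1, ABCG1, MYLIP, NR1H2, NR1H3, SREBF1, NPC1 and NPC2 are 8 of the 48162 genes in the expression tables. Their products carry cholesterol out of the cell, switch that export on, limit lipoprotein uptake, drive fatty acid synthesis, or move cholesterol out of lysosomes. The list was chosen by the FPKM values of ABCA1, which were higher with vesicles in the HPNE cell line. The HPNE differences of vesicle groups from residual medium and from untreated cells are therefore given as a description, with no test of any of the 8 genes, and ABCA1 is given without a p in every HPNE comparison. RNA was sequenced from 2 human pancreas cell lines in 4 conditions, with 3 libraries in each of the 8 groups. hTERT-HPNE (here HPNE) is an immortalised pancreas line carrying a telomerase transgene, and HPDE-H6c7 (here HPDE) is an immortalised pancreatic duct epithelium line. Both lines grew in keratinocyte serum-free medium before a treatment of 24 h, which was fresh medium of that kind (untreated), medium left from the vesicle isolation (residual medium, the negative control), 1e10 extracellular vesicles (EV) per well from PANC-1 cells, or 1e10 EV per well from PPCL-68 cells. PANC-1 is an established pancreatic cancer line. The labels do not say more of PPCL-68, or whether the 3 libraries of a group came from separate cultures, so the p-values measure the spread between these libraries, which may be technical.

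Liver X receptors (LXR) are nuclear receptors that bind oxysterols, oxidised forms of cholesterol, and act as pairs with the retinoid X receptor on DNA. NR1H3 encodes LXR alpha and NR1H2 encodes LXR beta. Their classical targets include ABCA1 and ABCG1, the transporters that pass cholesterol to lipid-poor apolipoproteins and to high-density lipoprotein, MYLIP, a ubiquitin ligase that limits lipoprotein uptake, and SREBF1, the transcription factor gene that drives fatty acid synthesis. NPC2 and NPC1 hand cholesterol from the lysosome's interior to its membrane, which is how cholesterol taken up with lipoproteins or other particles reaches the rest of the cell.

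The 250 bases before each start site were available for 7 of the 8 genes, at 11 starts, in a promoter table from RefSeq on GRCh38.p14. They were searched on both strands for the LXR response element, a direct repeat spaced by 4 bases (DR4, AGGTCA and again AGGTCA after 4 free bases, up to 2 mismatches over these 12 letters). ABCA1 had the one match among the 11 starts, 69 to 54 bases before the start on the strand opposite to the gene, where 10 of the 12 letters were the same. Of all 35116 promoters of that length, 2.03% held such a match. The ABCA1 window is shown because ABCA1 is the gene around which the results turn. It lies at chr9:104928156-104928405 on the minus strand, and the capitals mark the DR4 match as read on the gene's strand.
ABCA1: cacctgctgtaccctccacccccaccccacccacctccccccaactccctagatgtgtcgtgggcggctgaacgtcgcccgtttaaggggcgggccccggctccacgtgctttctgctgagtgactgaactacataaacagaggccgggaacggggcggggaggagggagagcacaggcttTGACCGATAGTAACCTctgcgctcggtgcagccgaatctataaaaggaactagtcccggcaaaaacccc
The same window held an E-box (CACGTG) 147 to 142 bases before the start, as did 6.34% of all promoters. None of the 11 starts held a sterol response element (ATCAC and CCAC spaced by 1 free base, up to 1 mismatch), which 3.78% of all promoters held. These are matches of letters, not measured binding sites.

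In the coordinates of the deposited tables (hg19), ABCA1 lies on chromosome 9 from 107543283 to 107690518, ABCG1 on chromosome 21 from 43619799 to 43717354, and MYLIP on chromosome 6 from 16129356 to 16148479. NR1H2 lies on chromosome 19 from 50832910 to 50886239, NR1H3 on chromosome 11 from 47269851 to 47290396, and SREBF1 on chromosome 17 from 17713713 to 17740325. NPC1 lies on chromosome 18 from 21086307 to 21166862, and NPC2 on chromosome 14 from 74942895 to 74960880. The tables list each as a protein-coding gene.

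Levels are in FPKM, fragments counted for a gene, scaled to its length and to the total of its own library. The libraries held 29209142 to 46490312 reads assigned to genes. Duct epithelium markers (EPCAM, KRT19, KRT7, CDH1 and KRT8) summed to 1301 to 3214 FPKM in HPDE and to 1.10 to 7.65 FPKM in HPNE, whereas the mesenchymal markers VIM, COL1A1, COL1A2, CDH2 and ZEB1 summed to 2316 to 6709 FPKM in HPNE and to 22.4 to 33.3 FPKM in HPDE. The duct markers that define HPDE were thus close to 0 in HPNE. Macrophage markers, of a cell type rich in ABCA1 and ABCG1, summed to at most 2.92 FPKM in any library. In each HPNE group 1 library lay apart from the other 2 across all genes (untreated 3, residual medium 3, PANC-1 EV 1 and PPCL-68 EV 1), at a distance 2.05 to 3.31 times that of the close pair; the same ratio was 1.08 to 1.24 in HPDE. For the 8 genes, HPNE differences that moved by over 1.5 times without these 4 libraries are given both ways, with no p, because the libraries left in are close by selection. In such bulk samples, fewer cells of a kind and less RNA per cell cannot be told apart.

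ABCA1 was the main transporter gene of the pair in HPNE, whereas both were low in HPDE. ABCA1 ranged from 2.30 to 56.9 FPKM over the 12 HPNE libraries and from 0.625 to 4.21 FPKM over the 12 HPDE libraries. ABCG1 had 0 to 18 reads per library in HPNE, with 0 reads in 6 of 12, and 0.495 to 3.42 FPKM (52 to 415 reads) in HPDE. Of the receptors, NR1H2 was the more abundant in every library, at 31.0 to 41.2 FPKM in HPNE and 18.2 to 25.7 FPKM in HPDE. NR1H3 spanned 1.25 to 14.1 FPKM in HPNE and 1.57 to 2.60 FPKM in HPDE. SREBF1 (21.3 to 71.9 FPKM in HPNE, 36.8 to 56.0 in HPDE) and NPC2 (50.2 to 125.9 and 52.6 to 86.9) overlapped between the lines. MYLIP overlapped too (0.540 to 12.03 FPKM in HPNE and 1.41 to 2.79 in HPDE), and NPC1 did not, at 8.09 to 25.3 FPKM in HPNE and 30.8 to 47.4 in HPDE. Differences in level between the lines were not tested. ABCG1 did not pass the filter of a mean of at least 1 FPKM in HPNE, so 7 of the 8 genes were tested there. All 8 passed in HPDE, but ABCA1 and ABCG1 passed there through the vesicle groups, with means over the 6 control libraries of 0.822 and 0.604 FPKM.

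**Figure D1:**
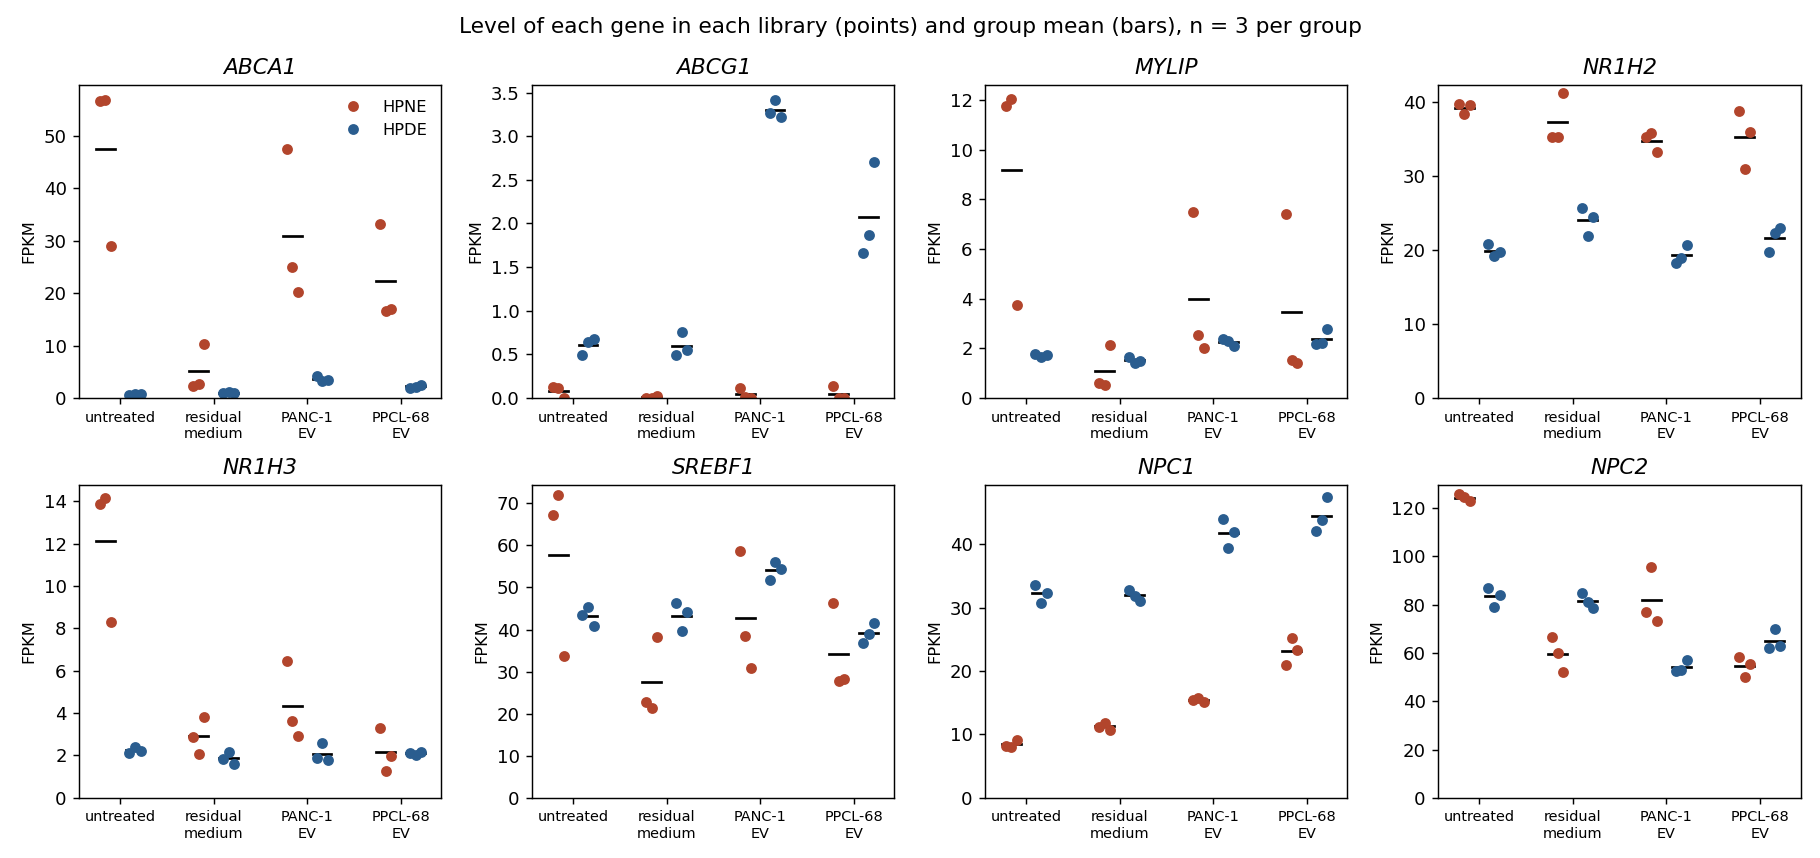
Level in FPKM (vertical axis, linear, from 0, scaled per gene) of the 8 genes in each of the 24 libraries, by condition; points are libraries, red for HPNE and blue for HPDE, and bars are group means of 3. ABCA1 in HPNE has a mean of 47.5 FPKM untreated and of 5.10 in residual medium, with the vesicle groups between, while in HPDE the vesicle groups are the highest for ABCA1 and ABCG1.

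In HPNE the high level of ABCA1 belonged to the untreated cells, and the low level to residual medium. ABCA1 stood at 56.6, 56.9 and 28.9 FPKM in untreated HPNE cells and at 2.30, 2.72 and 10.3 FPKM in residual medium. It stood at 47.4, 24.9 and 20.3 FPKM with PANC-1 EV and at 33.1, 16.7 and 17.0 FPKM with PPCL-68 EV. Every vesicle library was above every residual medium library, and the vesicle groups overlapped the untreated group. Mean ABCA1 was 6.05-fold higher with PANC-1 EV and 4.37-fold higher with PPCL-68 EV than in residual medium, and 1.54-fold and 2.13-fold lower than in untreated cells. On the log2(FPKM + 1) scale used for all tests, the differences from residual medium were 2.53 ± 0.48 (SE, n = 3 per group) and 2.10 ± 0.48. Among the 11503 genes tested in HPNE, these differences were number 4 and number 19 from the top. Since a rise of ABCA1 here led to the choice of the list, these ranks are no further evidence. Without the 4 libraries that lay apart the differences from residual medium were 2.74 and 2.35, and those from untreated cells, -0.63 and -1.07 with every library, became -1.30 and -1.69.

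The other targets in HPNE followed ABCA1 in part. MYLIP was at 11.8, 12.03 and 3.74 FPKM untreated, 0.616, 0.540 and 2.12 in residual medium, 7.47, 2.52 and 2.00 with PANC-1 EV, and 7.42, 1.53 and 1.40 with PPCL-68 EV. Its vesicle groups overlapped both controls, with the highest vesicle value in the library that lay apart in each case. Its log2 differences from untreated cells were -1.05 for PANC-1 EV and -1.32 for PPCL-68 EV; without the 4 libraries that lay apart they were -1.99 and -2.39. SREBF1 was at 67.1, 71.9 and 33.8 FPKM untreated, 22.8, 21.3 and 38.2 in residual medium, 58.8, 38.4 and 30.9 with PANC-1 EV, and 46.4, 27.7 and 28.2 with PPCL-68 EV. Its groups overlapped as well, and its differences from untreated cells, -0.40 and -0.71, were -0.99 and -1.28 without those 4 libraries. The ABCG1 reads were 13, 12 and 0 untreated, 0, 0 and 3 in residual medium, 15, 2 and 0 with PANC-1 EV, and 18, 0 and 0 with PPCL-68 EV, too few for a fold.

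The receptor genes and the lysosomal pair did not follow the same course. NR1H3 was at 13.9, 14.1 and 8.28 FPKM in untreated HPNE cells, 2.87, 2.06 and 3.82 in residual medium, 6.48, 3.62 and 2.90 with PANC-1 EV, and 3.28, 1.25 and 1.98 with PPCL-68 EV. Each vesicle and residual medium library was thus below each untreated one, and the vesicle groups overlapped residual medium. NR1H2 stayed between 31.0 and 41.2 FPKM across the 4 groups. NPC1 was at 8.11, 8.09 and 9.18 FPKM untreated, 11.2, 11.9 and 10.6 in residual medium, 15.4, 15.8 and 15.2 with PANC-1 EV, and 21.0, 25.3 and 23.3 with PPCL-68 EV. These 4 groups did not overlap, in that order. NPC2 was at 126, 124 and 123 FPKM untreated, 66.5, 60.1 and 52.0 in residual medium, 76.9, 95.5 and 73.1 with PANC-1 EV, and 58.3, 50.2 and 55.4 with PPCL-68 EV, with the untreated group above the rest. Its PPCL-68 EV difference from residual medium was -0.12, and -0.26 without the 4 libraries that lay apart. In the contrasts with residual medium, 3 of the 7 genes tested lay above without overlap with PANC-1 EV (ABCA1, NPC1 and NPC2) and 2 with PPCL-68 EV (ABCA1 and NPC1), and 0 lay below. Of all genes tested 23.4% lay above and 14.8% below with PANC-1 EV, and 26.3% above and 22.0% below with PPCL-68 EV. Against untreated cells 1 lay above (NPC1) and 3 below (NR1H2, NR1H3 and NPC2) with PANC-1 EV, where 18.1% of all genes lay above and 23.6% below. With PPCL-68 EV 1 lay above (NPC1) and 2 below (NR1H3 and NPC2), where 25.8% lay above and 30.4% below. The vesicle contrasts in a line share their control libraries.

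Residual medium itself separated from fresh medium in HPNE. NPC2 fell to 59.5 ± 7.27 from 124 ± 1.58 FPKM (SD, n = 3), by 1.06 ± 0.12 (SE) on the log2 scale with an adjusted p of 0.000125, and NPC1 rose by 0.37 ± 0.08 with an adjusted p of 0.0055, in limma with Benjamini-Hochberg adjustment over the 11503 genes. NR1H3, the LXR alpha gene, fell 4.15-fold in mean level, to 2.91 ± 0.881 from 12.1 ± 3.31 FPKM, with a log2 difference of -1.73 ± 0.30 and an adjusted p of 0.00156 by limma. MYLIP fell 8.41-fold, to 1.09 ± 0.889 from 9.17 ± 4.71 FPKM, with a log2 difference of -2.22 ± 0.57 and an adjusted p of 0.0106. SREBF1 fell 2.10-fold, to 27.4 ± 9.38 from 57.6 ± 20.8 FPKM, with a log2 difference of -1.02 ± 0.34 and an adjusted p of 0.0308, although its groups overlapped. NR1H2 differed by -0.08 ± 0.09 with an adjusted p of 0.516. Mean ABCA1 was 9.31-fold lower in residual medium, a log2 difference of -3.16 ± 0.48, given with no test because the residual medium libraries also entered the contrasts that led to its choice. The other 6 genes share those libraries too.

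Of the 6 genes other than ABCA1, 5 passed the test, 1 higher and 4 lower, where 43.9% of all genes tested passed, 18.7% higher and 25.2% lower. The call of SREBF1 was lost without untreated library 1 or 2 or residual medium library 1 or 2 (adjusted p from 0.0987 to 0.116, limma), in a fit with no filter on low values (0.0804) and in a fit of only the 6 libraries compared (0.0555). Without the 4 libraries that lay apart, SREBF1 differed by -1.62, MYLIP by -3.03 and NR1H3 by -2.13. NPC2 then differed by -0.97, NPC1 by 0.46, NR1H2 by -0.14 and ABCA1 by -4.04.

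In HPDE the same change of medium left the levels of 7 of the 8 genes without a call. NR1H2 was the exception, at 25.7, 21.9 and 24.4 FPKM in residual medium and 20.9, 19.1 and 19.7 FPKM untreated. It rose by 0.26 ± 0.07 (SE) with an adjusted p of 0.0202 in limma, where 20.0% of all 12223 genes tested passed, 9.93% higher and 10.1% lower. The call was lost with no filter on low values (adjusted p 0.0805) and without untreated library 2 or 3 or residual medium library 1 or 3 (adjusted p from 0.0592 to 0.0849). ABCA1 was at 0.869, 1.06 and 0.906 FPKM in residual medium and 0.625, 0.727 and 0.740 FPKM untreated, without overlap, with a log2 difference of 0.20 ± 0.10 and an adjusted p of 0.168 in limma. ABCG1, SREBF1, NPC1 and NPC2 differed by -0.01, 0.00, -0.01 and -0.03, each with an SE of at most 0.11.

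The effect of residual medium differed between the lines for each of the 6 genes other than ABCA1 that could be tested, by an interaction contrast over all 24 libraries, where 38.1% of the 12377 genes in that fit passed, 17.1% with a positive and 21.0% with a negative difference. The HPNE effect minus the HPDE effect was -2.11 ± 0.62 (SE) for MYLIP (adjusted p 0.0118, limma), -1.55 ± 0.33 for NR1H3 (0.00171), -1.02 ± 0.13 for NPC2 (1.27e-05) and 0.39 ± 0.10 for NPC1 (0.00482). It was -1.02 ± 0.36 for SREBF1 (0.0339) and -0.33 ± 0.12 for NR1H2 (0.0323). Those last 2 calls were lost with no filter on low values (adjusted p 0.0857 for SREBF1 and 0.0635 for NR1H2), NR1H2 also with size factors in place of the library totals (0.112). They were also lost when single libraries were left out: SREBF1 without untreated or residual medium library 1 or 2 of HPNE, or 1 or 3 of HPDE; NR1H2 without untreated library 1 or residual medium library 1 or 2 of HPNE, or untreated library 2 or 3 or residual medium library 1 or 3 of HPDE. Without the 4 HPNE libraries that lay apart, SREBF1 differed between the lines by -1.62. The ABCA1 value was -3.36 ± 0.52, given with no test.

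**Figure D2:**
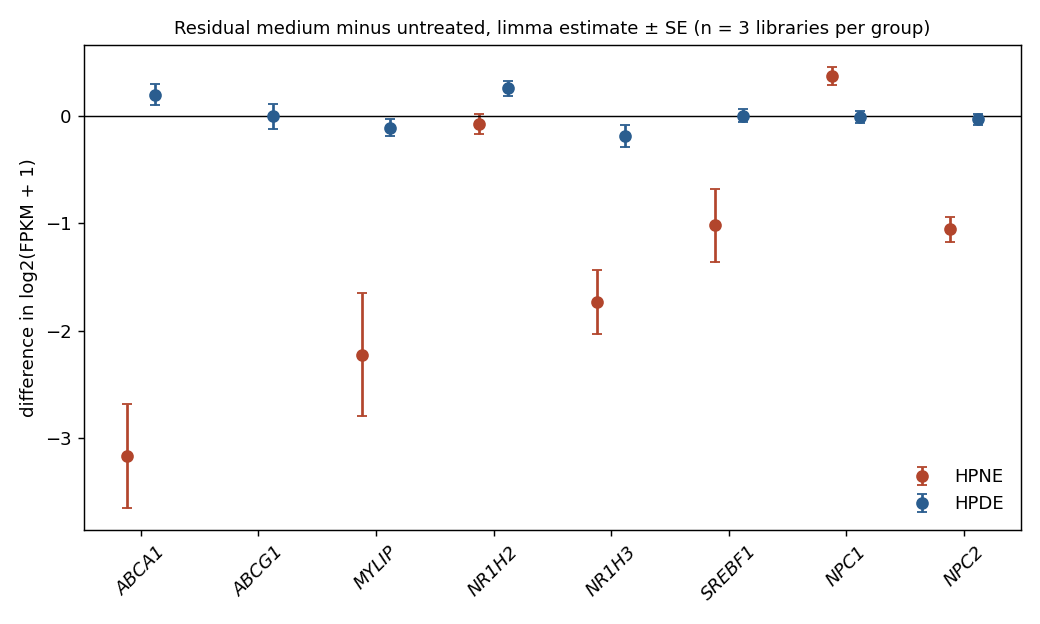
Difference between residual medium and untreated cells (vertical axis, log2(FPKM + 1), limma estimate) for the 8 genes in HPNE (red) and HPDE (blue); bars are the standard error, from 3 libraries per group, and ABCG1 has no HPNE point because it did not pass the filter. HPDE points lie between -0.19 and 0.26, while HPNE points reach -3.16 for ABCA1.

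In HPDE both cholesterol transporters rose with vesicles of either source, from a low start. ABCG1 was at 0.495, 0.761 and 0.549 FPKM in residual medium and 0.496, 0.641 and 0.681 FPKM untreated. It was at 3.27, 3.42 and 3.22 FPKM with PANC-1 EV (387, 415 and 366 reads) and at 1.67, 1.87 and 2.70 FPKM with PPCL-68 EV (169, 241 and 312 reads). Each vesicle library was above each control library. Against residual medium mean ABCG1 rose 5.49-fold with PANC-1 EV, a log2 difference of 1.43 ± 0.11 (SE, n = 3 per group), and 3.45-fold with PPCL-68 EV, a log2 difference of 0.93 ± 0.11. Since ABCG1 and ABCA1 passed the filter through these groups, their HPDE vesicle p-values are from the limma fit with no filter on low values, where ABCG1 had adjusted p of 1.18e-05 and 0.000164. On the reads recovered from the FPKM values, where no pseudocount compresses low levels, the log2 differences were 2.48 and 1.79.

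ABCA1 took the same course. It was at 4.21, 3.25 and 3.38 FPKM with PANC-1 EV (1506, 1191 and 1159 reads) and at 1.95, 2.19 and 2.57 FPKM with PPCL-68 EV (599, 854 and 897 reads), each above each control library. Against residual medium mean ABCA1 rose 3.82-fold with PANC-1 EV, by 1.24 ± 0.10 on the log2 scale with an adjusted p of 8.56e-06 in limma with no filter, and 2.36-fold with PPCL-68 EV, by 0.73 ± 0.10 with an adjusted p of 0.000238. On recovered reads these were 1.93 and 1.24. Against untreated cells, too, ABCA1 rose 5.18-fold and 3.21-fold (adjusted p 2.89e-06 and 4.24e-05, limma with no filter), and ABCG1 5.45-fold and 3.43-fold (1.11e-05 and 0.000172). So in HPDE, unlike the HPNE levels of ABCA1, the vesicle groups stood above untreated cells as well as above residual medium; the difference between the lines in the vesicle effect was not tested, since the HPNE values led to the choice of genes. By size of rise over residual medium with PANC-1 EV, ABCG1 was number 64 and ABCA1 number 104 of the 12223 genes that passed the filter. Both passed it through the vesicle groups, so these ranks only describe the size of the rise.

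Of the other LXR targets among the 8, MYLIP rose with both sources and SREBF1 with 1. MYLIP was at 1.65, 1.41 and 1.48 FPKM in residual medium, 1.78, 1.64 and 1.72 untreated, 2.37, 2.31 and 2.10 with PANC-1 EV, and 2.17, 2.23 and 2.79 with PPCL-68 EV, with no overlap between vesicle and control libraries. It rose by 0.37 ± 0.08 with PANC-1 EV (adjusted p 0.00119, limma) and by 0.43 ± 0.08 with PPCL-68 EV (0.000336) over residual medium. SREBF1 was at 46.2, 39.7 and 44.1 FPKM in residual medium, 43.4, 45.4 and 40.9 untreated, 51.9, 56.0 and 54.3 with PANC-1 EV, and 36.8, 39.0 and 41.4 with PPCL-68 EV. The PANC-1 EV group was above the rest, 1.25-fold over residual medium (log2 difference 0.31 ± 0.06, adjusted p 0.000402, limma). The PPCL-68 EV group overlapped both controls. Its difference from residual medium was -0.14 ± 0.06 with an adjusted p of 0.0486, a call lost with no filter on low values (0.128), with size factors (0.121), in a fit of the 6 libraries compared (0.073), with a replicate block (0.0723) and without residual medium library 1 or 3 or PPCL-68 EV library 1 or 2 (0.0909 to 0.196).

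The receptor genes changed little in HPDE. NR1H3 was at 2.11, 2.39 and 2.22 FPKM untreated, 1.83, 2.18 and 1.57 in residual medium, 1.88, 2.60 and 1.77 with PANC-1 EV, and 2.11, 2.02 and 2.17 with PPCL-68 EV, 4 overlapping groups. Its differences from residual medium were 0.10 ± 0.10 and 0.12 ± 0.10, with adjusted p of 0.389 and 0.311 in limma. NR1H2 was at 18.2, 19.0 and 20.7 FPKM with PANC-1 EV and 19.7, 22.3 and 23.0 FPKM with PPCL-68 EV. It fell by 0.30 ± 0.07 from residual medium with PANC-1 EV (adjusted p 0.00178, limma), and its difference from untreated cells was -0.04 ± 0.07 (0.607).

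The lysosomal pair moved in opposite directions in HPDE. NPC1 was at 32.8, 31.9 and 31.1 FPKM in residual medium and 33.6, 30.8 and 32.3 untreated, against 44.0, 39.4 and 42.0 FPKM with PANC-1 EV and 42.1, 43.9 and 47.4 with PPCL-68 EV. It rose 1.31-fold and 1.39-fold over residual medium (log2 differences 0.38 ± 0.05 and 0.46 ± 0.05, adjusted p 2.88e-05 and 2.83e-06, limma). NPC2 was at 84.7, 81.0 and 78.6 FPKM in residual medium and 86.9, 79.1 and 84.2 untreated, against 52.6, 53.0 and 57.1 with PANC-1 EV and 61.9, 69.8 and 62.8 with PPCL-68 EV. It fell by 0.58 ± 0.05 and 0.33 ± 0.05 on the log2 scale (adjusted p 5.23e-07 and 9.89e-05). NPC1 and NPC2 had no overlap between the vesicle and the control libraries.

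Over residual medium, 7 of the 8 genes passed with PANC-1 EV (5 higher, 2 lower) and 6 with PPCL-68 EV (4 higher, 2 lower), where 63.3% (28.2% higher, 35.1% lower) and 67.7% (31.3% higher, 36.4% lower) of all genes tested passed. ABCA1 and ABCG1, counted among the higher genes, passed the filter through the vesicle groups. Against untreated cells 6 passed with PANC-1 EV (5 higher, 1 lower; of all genes 60.6% passed, 26.3% higher and 34.4% lower) and 5 with PPCL-68 EV (4 higher, 1 lower; of all genes 66.3%, 30.1% higher and 36.1% lower). Most genes passed in these comparisons, so the number of calls among the 8 is near the background, and the sizes carry more than the counts. The vesicle groups also differed from residual medium in the summed duct markers (1389 to 1620 FPKM with PANC-1 EV, 1301 to 1325 FPKM with PPCL-68 EV, 2837 to 3214 FPKM in residual medium). Its part in the differences of these genes was not tested.

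**Figure D3:**
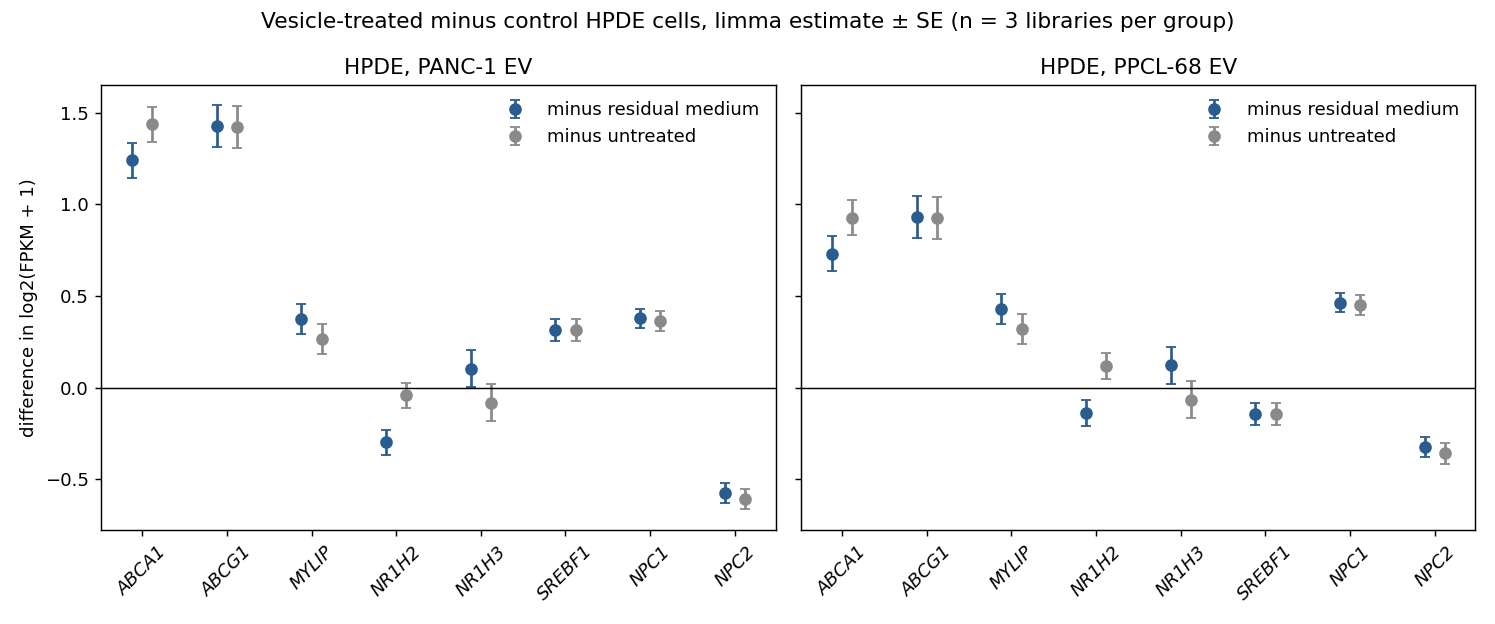
Difference of vesicle-treated HPDE cells from residual medium (blue) and from untreated cells (grey) for the 8 genes (vertical axis, log2(FPKM + 1), limma estimate; bars are the standard error, 3 libraries per group), PANC-1 EV on the left and PPCL-68 EV on the right. ABCA1 and ABCG1 lie highest in both panels, from 0.73 to 1.44, and NPC2 lies lowest, from -0.33 to -0.61.

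The 2 vesicle sources, given at the same number per well and for the same time, differed in HPDE for 4 of the 8 genes, 3 higher and 1 lower with PANC-1 EV, where 50.1% of all genes tested passed, 25.2% higher and 24.9% lower. ABCA1 was 1.61-fold and ABCG1 1.59-fold higher with PANC-1 EV than with PPCL-68 EV (log2 differences 0.51 ± 0.10 and 0.50 ± 0.11, adjusted p 0.00506 and 0.016, limma with no filter). SREBF1 was 1.38-fold higher (0.46 ± 0.06, adjusted p 2.69e-05, with the filter), and NPC2 was lower by a log2 difference of -0.25 ± 0.05 (0.00167). MYLIP, NPC1, NR1H2 and NR1H3 differed by -0.05 ± 0.08, -0.09 ± 0.05, -0.16 ± 0.07 and -0.02 ± 0.10, with adjusted p of 0.617, 0.2, 0.0708 and 0.905. In HPNE 2 of 7 genes passed, where 5.47% of all genes tested did, 3.22% higher and 2.25% lower with PANC-1 EV: NPC1 was lower with PANC-1 EV than with PPCL-68 EV (-0.55 ± 0.08, adjusted p 0.00561, limma) and NPC2 higher (0.57 ± 0.12, 0.0202). The NPC2 call was lost with no filter on low values (0.0503), in a fit of the 6 libraries compared (0.0581) and without PANC-1 EV library 2 or PPCL-68 EV library 2 or 3 (0.0713 to 0.104, limma). Same-numbered libraries of these 2 groups deviated together, and in a fit of the 6 libraries with the replicate number as a block, chosen after seeing the data, NR1H3 passed too (0.74 ± 0.13, adjusted p 0.0201, limma). In that paired fit 3 of the 6 genes other than ABCA1 passed (NPC1, NPC2 and NR1H3), where 16.5% of all genes tested did. ABCA1 was higher with PANC-1 EV in each of the 3 pairs, by 0.43 on the log2 scale.

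Other genes of the pathway were read from 8 further lists. In HPDE the cholesterol synthesis genes fell where the transporters rose: 16 of 18 passed lower and 0 higher with PANC-1 EV, and 17 lower and 1 higher (TM7SF2) with PPCL-68 EV, with median log2 differences of -0.86 and -0.81 against -0.04 and -0.03 over all genes tested. Of all genes tested, 35.1% passed lower and 28.2% higher with PANC-1 EV, and 36.4% and 31.3% with PPCL-68 EV. HMGCS1, which makes the precursor of mevalonate, fell by 1.84 ± 0.07 (SE) with PANC-1 EV, to 19.4 ± 0.681 from 72.4 ± 6.62 FPKM (SD, n = 3; adjusted p 2.72e-11, limma), and by 1.57 ± 0.07 with PPCL-68 EV. INSIG1, which holds the SREBP proteins back when sterols are plentiful, fell by 0.90 and 0.97. SREBF2, the main activator of cholesterol synthesis, differed by 0.11 and -0.12 without passing (0.0822 and 0.052). Residual medium also lay below untreated cells for these genes in HPDE, where 11 of 18 passed lower and 0 higher, with a median of -0.26. In that comparison 10.1% of all genes tested passed lower and 9.93% higher. Against untreated cells the medians with vesicles were -1.07 and -1.12.

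In HPDE the fatty acid synthesis genes, many of them driven by the SREBF1 product, passed lower for 7 of 12 and higher for 1 (MID1IP1) with PANC-1 EV, and lower for 10 and higher for 2 with PPCL-68 EV. FASN fell by 0.74 and 0.80 and SCD, the desaturase, by 0.67 and 1.11 (adjusted p from 1.43e-06 to 4.33e-07 for FASN and from 1.26e-05 to 5.15e-08 for SCD, limma), although SREBF1 itself was higher with PANC-1 EV. Other LXR targets were mixed in HPDE: of 8 tested, 2 were higher and 2 lower with PANC-1 EV, and 1 higher and 3 lower with PPCL-68 EV. TTC39B, an LXR target that acts on LXR turnover, rose by 0.62 and 0.34. PLTP, the phospholipid transfer protein gene, rose by 0.35 with PANC-1 EV and fell by 0.18 with PPCL-68 EV. APOE and LPCAT3 did not pass. Of the receptor partners and coregulators, 4 of 10 were higher and 2 lower with PANC-1 EV, and 6 higher and 2 lower with PPCL-68 EV. The coactivator gene NCOA3 rose by 0.49 and 0.94, and RXRA differed by 0.02 (0.833) and rose by 0.18 (0.0151). The corepressor gene NRIP1 was lower than in residual medium by 0.45 and 0.58, but not lower than in untreated cells. Mean NRIP1 in HPDE was 6.74 FPKM untreated and 15.4 FPKM in residual medium. It was 11.0 FPKM for PANC-1 EV and 9.96 FPKM for PPCL-68 EV, each vesicle library being above each untreated one.

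In HPNE residual medium lowered the wider group as it lowered MYLIP and NR1H3: 6 of 8 other LXR targets passed lower and 0 higher, with a median of -1.13 against -0.05 over all genes tested. For this and the next lists, 25.2% of all genes tested passed lower and 18.7% higher. APOE, whose protein takes up cholesterol exported by the transporters, fell by 1.67 ± 0.16 (SE), to 244.5 ± 22.0 from 792 ± 176 FPKM (SD, n = 3; adjusted p 5.58e-05, limma). PLTP fell by 1.76 (0.00178) and LPCAT3, a phospholipid remodelling enzyme gene, by 0.62 (0.00315). Of the receptor partners, 7 of 11 passed lower and 0 higher, among them PPARG (by 2.14, to 3.89 ± 0.508 from 20.7 ± 3.71 FPKM, 0.000423), RXRA (by 1.06, 0.000345) and RXRB (by 0.52, 0.0073). Fatty acid synthesis genes passed lower for 9 of 13, including SCD, which fell by 1.23 (0.022), FASN, which fell by 0.81 (0.0289), and ACSS2, which fell by 1.54 (0.000642). Cholesterol synthesis genes passed lower for 3 of 18, with a median of -0.07, and HMGCS1 did not pass (0.241). Without the 4 libraries that lay apart, 9 of the 18 passed, where 71.7% of all genes did, a description because the libraries left in are close by selection. In HPDE the corresponding counts with residual medium were 2 lower of 8 other LXR targets, 4 lower and 2 higher of 10 partners, and 9 lower and 1 higher of 12 fatty acid synthesis genes. There 10.1% of all genes tested passed lower and 9.93% higher.

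Over residual medium in HPNE, other LXR targets passed higher for 3 of 8 with PANC-1 EV and 2 of 8 with PPCL-68 EV. None passed lower, where 24.2% and 39.9% of all genes tested passed (13.9% higher and 10.3% lower, then 20.3% and 19.7%). Compared instead with untreated HPNE cells, the median difference of these targets lay below that of all genes tested. For PANC-1 EV the median was -0.53 against -0.04 over all genes tested. For PPCL-68 EV it was -0.70 against -0.05. Without the 4 libraries that lay apart 5 of 8 passed against residual medium with either source, where 59.1% and 65.7% of all genes did. The libraries left in are close by selection. TTC39B rose by 0.63 and 0.59 in limma, and APOE rose by 0.68 with PANC-1 EV (0.0126) and differed by 0.28 with PPCL-68 EV (0.185). Cholesterol synthesis genes passed lower for 11 and 14 of 18 and higher for 0, with medians of -0.60 and -1.21, and HMGCS1 fell by 1.41 (0.0178) and 1.76 (0.00342). Of the oxysterol enzymes, CH25H and HSD3B7 were the 2 of 8 that could be tested in HPNE. CH25H rose over residual medium by 1.70 in HPNE with PANC-1 EV (0.0453), to 4.30 ± 2.10 from 0.733 ± 1.04 FPKM. Its mean in untreated HPNE cells was 3.72 FPKM. In HPDE it fell by 0.78 with PPCL-68 EV (0.000268), to 0.774 from 2.12 FPKM in residual medium, with 1.00 FPKM in untreated cells. Against untreated cells CH25H passed in neither of these vesicle groups. CYP27A1 was at or below 0.252 FPKM in every library. These lists were drawn up with earlier results of these libraries known, so their counts are descriptions.

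Uptake and storage genes were less uniform. In HPDE with PANC-1 and PPCL-68 EV, 0 and 2 of 7 lipoprotein uptake genes passed higher and 3 and 4 passed lower. Of 12 genes for lysosomal release, transfer and storage, 3 and 5 passed higher and 5 and 5 lower. Most genes of any kind passed in these comparisons. Of all genes tested, 28.2% passed higher and 35.1% lower with PANC-1 EV, and 31.3% and 36.4% with PPCL-68 EV. LIPA, the lysosomal lipase that frees cholesterol from its esters, fell by 0.37 and 0.59, SOAT1, which esterifies cholesterol for storage, fell by 0.23 and 0.66, and SCARB2, a lysosomal membrane protein gene, rose by 0.43 and 0.68 (adjusted p of at most 0.00188 in limma). SCARB1, a receptor for high-density lipoprotein, differed by 0.10 and -0.08 without passing (0.0584 and 0.117). In HPNE with residual medium, VLDLR rose by 1.16 (0.00268) and the cholesterol ester hydrolase gene NCEH1 by 1.58 (0.00354), while SCARB1 fell by 0.74, LIPA by 0.61 and LRP1 by 0.82 (0.00523, 0.0046 and 0.00224).

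**Figure D4:**
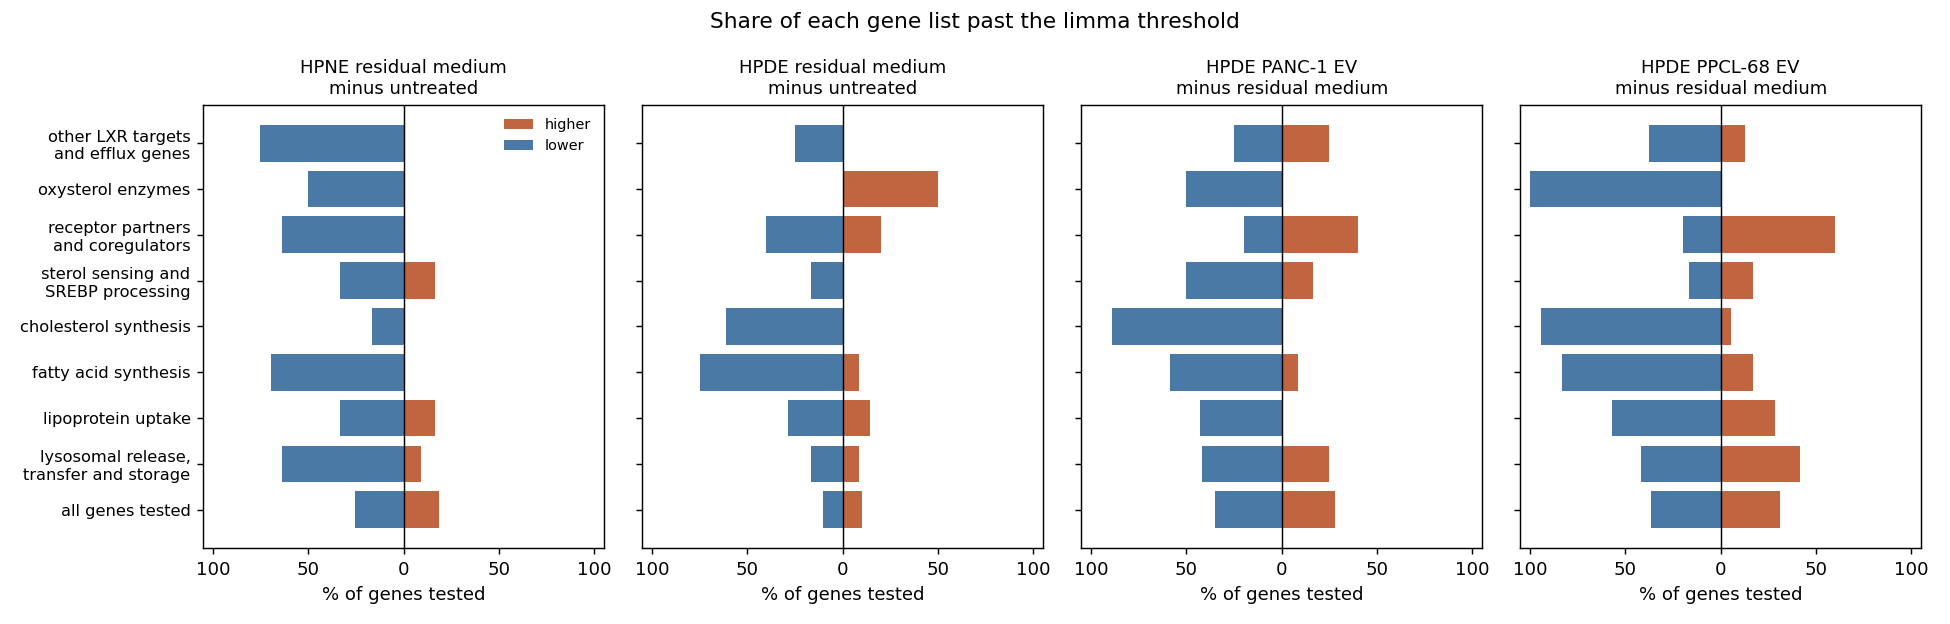
Share of the tested genes of each list that passed the limma threshold (horizontal axis, percent of genes tested; blue to the left for lower, red to the right for higher), with all genes tested at the bottom, in 4 comparisons. Cholesterol synthesis genes are mostly lower with either vesicle source in HPDE (16 and 17 of 18), while with residual medium in HPNE 6 of 8 other LXR targets and 3 of 18 cholesterol synthesis genes are lower; oxysterol enzymes rest on 2 genes.

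The genes whose levels ran most like ABCA1 and MYLIP were ranked by Pearson r of log2(FPKM + 1) over the 12 libraries of a line, a description of libraries that fall into 4 groups and share their scaling. In HPDE the genes most like ABCA1 were PTGS2 (r = 0.988), PDP1, DSG3, DSCAM and NEDD4 (0.983), and ABCG1 was number 10 of 12222 at 0.98. NPC2 ran opposite to ABCA1, at r = -0.97. In HPNE the genes most like ABCA1 were BBC3 (0.988), YPEL2, PHF21A, ULK1 and CYP1B1 (0.983), with MYLIP number 363 of 11502. MYLIP ran like EIF3F (0.987), RAB31, GRAMD4 and THEMIS2 (0.983) in HPNE, where SREBF1 was number 26 at 0.97, and most like DCP1A (0.973), USP31, LRRC37A4P, NOTCH1 and JAK2 (0.952) in HPDE, where NPC1 was number 10 at 0.946.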

How the data were processed

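RNA-seq was measured in 24 libraries, 3 in each of 8 groups taken from the sample titles. The authors deposited 1 table of FPKM values per library for 48162 genes, with gene length, symbol and position, per the file headers; the library kit kept no strand, per the labels' protocols, so antisense partners can share reads. The submitters' processing notes name CASAVA, STAR, HTSeq, DESeq2 and hg19, with no role or version. Each value was multiplied by gene length and divided by the step of 1 read estimated in its library. The result was a whole number of reads (within 0.01 reads) in 100% of cases, which gave 29209142 to 46490312 reads per library. No library pair agreed within counting noise (24 pairs, chi-square of at least 3.9 per degree of freedom).

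Genes with a mean of at least 1 FPKM in a line were tested on log2(FPKM + 1), a scale that understates changes of weakly expressed genes. In R 4.3.3, limma 3.58.1 was fitted to that line's 12 libraries (lmFit, then eBayes with its trend option), with group as the factor, which leaves 8 degrees of freedom. Two-sided p-values had the Benjamini-Hochberg adjustment across every gene tested (threshold 0.05). The lines were compared by an interaction contrast over 24 libraries. Alternatives were a pseudocount of 0.1, no filter, median-of-ratios size factors, only the 6 libraries compared, a replicate block, voom on recovered reads (limma; its calls among the 8 genes are in the closing section), leaving out each library and, chosen after seeing the data, leaving out the 4 HPNE libraries that lay apart and pairing the 2 HPNE vesicle groups by replicate number. The labels do not say what a replicate number shares; the deviations of same-numbered libraries of those 2 groups correlated at 0.292 to 0.5655 in each pair. The same fits were tested on simulated data. All 8 genes were named, with fixed genes of 8 pathway lists and the largest called rise and fall per list; TM7SF2 and others follow that rule. Some genes that the rule names are not reported here. The 8 genes and the lists were chosen with earlier results of these data known. Promoter sequences are from RefSeq (GRCh38.p14).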

Additional observations from a re-analysis of the deposited data

Results flagged for a closer look

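The effect of residual medium differed between the lines by an interaction contrast in limma (Benjamini-Hochberg adjusted p). The HPNE effect minus the HPDE effect, on the log2 scale, was -3.36 for ABCA1 (no test, as its choice used these libraries), -2.11 for MYLIP (0.0118), -0.33 for NR1H2 (0.0323), -1.55 for NR1H3 (0.00171), -1.02 for SREBF1 (0.0339), 0.39 for NPC1 (0.00482) and -1.02 for NPC2 (1.27e-05).

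NPC2 moved in opposite directions in the 2 lines in 2 comparisons, with no overlap between groups in either line. With PANC-1 EV against residual medium its log2 difference was 0.45 in HPNE and -0.58 in HPDE, and with PANC-1 EV against PPCL-68 EV it was 0.57 in HPNE and -0.25 in HPDE. The difference between the lines was not tested in these 2 comparisons.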

How the results depend on the processing

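Among differences of single genes under the alternatives, 1161 kept direction and call, 42 lost a call, 14 gained one, 13 moved beyond the spread and 23 changed sign. None of the 23 passed the threshold before or after. With size factors NR1H2 became 0.0489 (HPNE, residual medium against untreated) and 0.0023 (HPDE, PANC-1 EV against untreated), and NPC1 0.0004 (HPDE, residual medium). With each library left out in turn, MYLIP ran from -0.192 to 0.8597 and NR1H2 from -0.1007 to 0.056 between the sources in HPNE (NR1H2 0.0444 without the 4 libraries apart). In HPDE, NR1H3 ran from -0.0126 to 0.1817 with PANC-1 EV against residual medium and from -0.133 to 0.0553 between sources, and MYLIP from -0.102 to 0.0266 between sources. In HPDE with residual medium ABCG1 ran from -0.0756 to 0.0424, SREBF1 from -0.046 to 0.0617 and NPC1 from -0.0446 to 0.017. The cause was not tested.

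The number of the 8 genes called between vesicle sources in HPNE, 2, became 1 with no filter and 1 with only the 6 libraries compared. It became 4 (ABCA1 counted) in the fit of 6 libraries with the replicate block, where 16.5% of all genes passed. Without the 4 libraries apart it was 6 (ABCA1 counted), where 36.5% did. The libraries left in there are close by selection, so that count is a description and not a test. The single call with residual medium in HPDE (NR1H2) became 0 with no filter. Leaving out each library gave 5 to 6 calls for residual medium in HPNE (ABCA1 counted), 1 to 2 between sources in HPNE, 7 to 7 and 5 to 7 for PANC-1 and PPCL-68 EV against residual medium in HPDE, 6 to 6 and 5 to 6 against untreated, 0 to 1 for residual medium, 4 to 5 between sources, and 5 to 7 for the line difference. Size factors shifted the median of all genes by 0.11 in HPNE with residual medium, from -0.05 to 0.06. Voom on recovered reads called 6, 2, 7, 6, 6, 6, 1, 4 and 7 genes in the same order. ABCA1 is counted in the first and last of these, and in the line difference above. In the main limma fits 43.9, 5.47, 63.3, 67.7, 60.6, 66.3, 20.0, 50.1 and 38.1% of all genes tested passed, in that order. The shares were not taken for voom or with single libraries left out, so these counts are descriptions.

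Libraries with the same replicate number did not deviate together (mean correlations of -0.43 to 0.21 in HPNE and -0.14 to 0.03 in HPDE) except the 2 vesicle groups of HPNE (0.292 to 0.5655 in each pair), so the numbers are taken as pairs only there. With the replicate block over 12 libraries the calls were 6, 2, 7, 5, 6, 5, 1, 4 and 7 in that order. ABCA1 is counted in the first and last, and the share of all genes passing was not taken there. SREBF1 with PPCL-68 EV against residual medium in HPDE lost its call with this block. Of the counts in the other lists, 1121 stayed within 1.5 times and 231 did not. Depth limits ABCG1 in HPNE, at 0 to 18 reads.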
